A study of Rattus norvegicus with 30 samples.

Results

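To follow how the transcriptome of neurons moved during exposure to cannabidiol (CBD), the libraries of neurons treated with CBD for 24 h were compared with those treated for 4 h. The comparison used 6 of the 30 libraries of the study, 3 per time, and every protein_coding gene of the table deposited for this pair. That table lists 18860 protein_coding genes, and 14003 of them had enough reads to be tested. With the other gene types, 14102 genes were tested and adjusted for together. Libraries were paired by replicate number, 1 pair for each of the 3 independent experiments. P-values from these 6 libraries therefore measure the spread between these experiments.

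The cells were primary hippocampal neurons of wild-type Wistar rat embryos at embryonic day 18, which had been kept for 7 days in culture. CBD was given at 6 µM in ethanol (EtOH), and the ethanol made up 0.2% of the medium. The controls received EtOH alone for the same times, also in 3 libraries per time, so that time in culture with the vehicle could be set beside time with CBD. The study also treated neurons with dimethyl fumarate (DMF), monomethyl fumarate (MMF) and their vehicle dimethyl sulfoxide (DMSO), which were not compared here. There was no library of untreated cells at the start, so each value contrasts a later with an earlier time and not a treated with an untreated state.

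CBD is a lipophilic compound of *Cannabis sativa* with many protein targets besides the cannabinoid receptors. Cells commonly answer electrophilic or oxidative stress through Nrf2, a transcription factor of antioxidant genes, and answer amino acid or mitochondrial stress through ATF4. Lipid-synthesis genes respond to sterols and fatty acids, and immediate early genes respond within minutes to neuronal activity and to growth factors, so a later time often shows a different balance of these groups from an early one.

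The CBD libraries held from 16210820 to 21828946 reads counted on genes, and the EtOH libraries from 15329055 to 22625550. The first principal component of the 6 CBD libraries, with 45.7% of the variance, set replicate 3 apart from the others. The 24 h library of replicate 3 had a score of 44.1 and its 4 h partner 15.5, while the other 4 libraries had scores between -21.8 and -1.27. Over 12096 genes with a mean of at least 50 normalized counts, the median SD of the 3 pairwise log2 ratios was 0.147 with CBD, against 0.105 over 12084 genes with EtOH. The CBD experiments thus differed more from each other than the EtOH experiments did.

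The culture was checked against markers of the cell types that it could hold. All 20 neuronal markers passed the filter on low counts, and their summed level ran from 7401 to 8863 CPM (reads of a gene scaled to equal library totals) at 4 h and from 7662 to 8398 at 24 h. The 12 astrocyte markers summed to 2870 to 6400 CPM at 4 h and 2596 to 5925 CPM at 24 h, with *Gfap* and *Slc1a3* among the highest, so glial RNA was abundant. The 14 markers of the oligodendrocyte lineage summed to 784 to 971 CPM at 4 h and 629 to 1173 CPM at 24 h. The 12 microglial markers summed to 3.61 to 17.7 CPM at 4 h and 5.32 to 11.4 CPM at 24 h, and *Tmem119*, *Cx3cr1* and *P2ry12* each had 0 reads in at least 1 of the 6 libraries. Of 12 markers of endothelial, mural and fibroblast cells, which summed to 69.2 to 111.1 CPM at 4 h and 59.3 to 109 CPM at 24 h, *Cdh5* had 0 reads in all 3 libraries at 24 h. In such bulk libraries, fewer cells of a type and less RNA per cell cannot be told apart.

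Only 2 of the 14102 genes, 0.0142%, passed the threshold of an adjusted p under 0.05 in limma, and both were lower at 24 h than at 4 h. These were *Scd*, a desaturase of fatty acids, and *Mfap4*, a protein of elastic fibres. No gene was higher by this test (0%). By the sign of the estimate alone, 50.1% of all genes were higher and 49.9% lower. At an unadjusted p under 0.05, 834 genes (5.91%) were higher and 1180 (8.37%) lower. When the spread was estimated from the 12 CBD and EtOH libraries together, 153 genes (1.08%) were called higher and 314 (2.23%) lower with CBD, and all 467 (3.31%) were protein_coding. The EtOH pairs spread less than the CBD pairs (median SD of the pairwise log2 ratios 0.105 against 0.147). P-values of this fit therefore do not measure the spread between the CBD experiments alone, and those for CBD can be too small. Each of these 467 had the same sign in all 3 pairs, which their choice by p over the same pairs favours. Over all 14102 genes, 2564 were higher and 2769 lower in all 3 pairs. The median change of the 467 was 0.40 in size on the log2 scale. The 3 libraries of one time lay above all 3 of the other in 13.3% of all genes, with 24 h higher in 6.15% and lower in 7.14%. Both counts of calls are given below because they differ so much, and apart from *Scd* and *Mfap4* every limma call named over time with CBD comes from the wider set of libraries. Without the pair of replicate 1, 172 genes passed the 6-library test, without that of replicate 3, 140 did, and without that of replicate 2 none did (0, with 1193 at an unadjusted p under 0.05). Both *Scd* and *Mfap4* were also called by edgeR, which called 18 genes, and by DESeq2, which called 169.

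Promoter sequences are shown for 4 genes whose levels at the later time lay wholly outside those at the earlier one, 1 from each of the lipid, transporter, activity and antioxidant groups. They were taken from RefSeq on the GRCr8 assembly, which differs from the mRatBN7.2 assembly of the tables, and run 5′ to 3′ along the gene from 250 bases before to 50 bases after its start. Capitals mark matches, on either strand, to CCAAT, the palindromic cAMP response element TGACGTCA and the E-box CACGTG. They also mark TGACNNNGC, the core of the antioxidant response element, and the CArG box CCWWWWWWGG (W for A or T). The windows are *Scd* (chr1:253231682-253231981, minus strand), *Slc44a5* (chr2:245801741-245802040, plus strand), *Btg2* (chr13:48087641-48087940, minus strand) and *Gsta1* (chr9:31216483-31216782, minus strand).
Scd: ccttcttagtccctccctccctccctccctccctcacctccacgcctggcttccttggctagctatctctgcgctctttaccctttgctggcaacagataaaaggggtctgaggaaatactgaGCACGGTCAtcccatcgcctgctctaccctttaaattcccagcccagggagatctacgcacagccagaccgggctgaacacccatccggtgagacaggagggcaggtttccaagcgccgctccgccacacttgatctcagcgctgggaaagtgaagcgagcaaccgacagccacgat
Slc44a5: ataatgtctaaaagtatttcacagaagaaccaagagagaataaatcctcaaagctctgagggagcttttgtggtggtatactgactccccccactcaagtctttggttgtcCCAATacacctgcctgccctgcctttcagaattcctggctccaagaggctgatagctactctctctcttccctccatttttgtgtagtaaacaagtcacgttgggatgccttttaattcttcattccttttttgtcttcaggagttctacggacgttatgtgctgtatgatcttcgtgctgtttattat
Btg2: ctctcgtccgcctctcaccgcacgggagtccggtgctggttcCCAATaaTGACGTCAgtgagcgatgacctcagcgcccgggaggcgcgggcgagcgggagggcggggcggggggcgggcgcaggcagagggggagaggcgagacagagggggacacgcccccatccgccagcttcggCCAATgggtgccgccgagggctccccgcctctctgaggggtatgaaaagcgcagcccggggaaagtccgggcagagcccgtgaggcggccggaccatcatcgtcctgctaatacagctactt
Gsta1: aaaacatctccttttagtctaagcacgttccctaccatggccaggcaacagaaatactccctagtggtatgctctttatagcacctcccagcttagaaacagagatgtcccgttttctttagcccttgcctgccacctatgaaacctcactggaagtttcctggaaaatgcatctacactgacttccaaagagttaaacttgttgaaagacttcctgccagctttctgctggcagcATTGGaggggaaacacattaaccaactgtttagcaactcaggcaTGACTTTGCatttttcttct

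*Scd* held 1 match, to TGACNNNGC, written GCACGGTCA on this strand and starting 127 bases before the gene start. *Slc44a5* held a single CCAAT, 139 bases before the start. *Btg2* held TGACGTCA 201 bases before the start, next to 1 of its 2 CCAAT letters, which began 208 and 72 bases before it. *Gsta1* held TGACTTTGC at base 31 after the start and the reverse complement of CCAAT 14 bases before it. None of these windows held a CArG box. Over 33469 promoters of the same length, CCAAT was found in 37.5%, TGACGTCA in 1.83%, CACGTG in 6.42%, TGACNNNGC in 12.1% and the CArG box in 1.64%. These matches describe letters in a window and not sites of binding. Of 32 named genes looked up, 22 had a promoter in the table.

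*Scd* (ENSRNOG00000013552, chromosome 1 from 243269747 to 243282562 of mRatBN7.2) encodes stearoyl-CoA desaturase, the enzyme that makes monounsaturated from saturated fatty acids. It had 4682, 4797 and 7272 at 4 h and 2398, 2932 and 4116 at 24 h in normalized counts for replicates 1 to 3. All 3 libraries at 24 h lay below all 3 at 4 h, and the means were 5583 ± 1463 and 3148 ± 879 (SD, n = 3). *Scd* fell by 0.83 on the log2 scale (SE 0.074; adjusted p = 0.0303 in limma). With EtOH alone it had 5469, 6527 and 8483 at 4 h and 5634, 5608 and 8972 at 24 h, a log2 fold change (log2FC) of -0.032 (SE 0.055). The change with CBD differed from that with EtOH by -0.80 (SE 0.094) (adjusted p = 0.0223 in limma).

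Other genes of fatty acid synthesis were listed beside it. Of the 12 members, all tested, 10 were lower and 2 higher at 24 h, with a median log2FC of -0.085 against 0.0002 over all genes. With the spread of 12 libraries, 3 were called lower (*Scd*, *Thrsp* and *Acss2*), against 2.23% of all genes, and 1 higher (*Me1*), against 1.08%. *Thrsp*, the Spot 14 regulator of lipogenesis, had 222, 159 and 218 at 4 h and 47.5, 29.3 and 12.2 at 24 h. Its groups were far apart and its log2FC was -2.89 (SE 0.34), but its adjusted p was 0.0633 (limma) in the 6 libraries and 0.00691 with the spread of 12. *Acss2*, which makes acetyl-CoA from acetate, had 1757, 1941 and 2071 at 4 h and 1346, 1308 and 1513 at 24 h and a log2FC of -0.47 (SE 0.07), again without overlap. Both enzymes that build the fatty acid chain were lower by smaller estimates. *Fasn*, fatty acid synthase, had a log2FC of -0.23 (SE 0.076) and *Acaca*, acetyl-CoA carboxylase, one of -0.088 (SE 0.07), and neither was called. Of the 23 sterol synthesis genes tested, 12 were higher and 11 lower with a median of 0.051, and none was called with either spread. *Sqle*, squalene epoxidase, had the largest of the values named for this list, 0.30 (SE 0.09).

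*Mfap4* (ENSRNOG00000045683, chromosome 10 from 46167217 to 46170155), a microfibril-associated glycoprotein, had 2474, 2990.2 and 1689 at 4 h and 1425, 1328 and 744 at 24 h. It fell by 1.05 on the log2 scale (SE 0.091; adjusted p = 0.0303 in limma), and the groups did not overlap. In contrast to *Scd*, it also fell with EtOH alone, where it had 2659, 2178 and 2047 at 4 h and 1848, 1759 and 1643 at 24 h and a log2FC of -0.38 (SE 0.054) (adjusted p = 0.00218 in limma). The difference between both changes was -0.67 (SE 0.20) and did not pass the threshold (adjusted p = 0.317 in limma).

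Further genes of the extracellular matrix or of contractile cells were among the 12 lower genes with the smallest p. *Tagln*, which encodes the actin-binding protein transgelin, had 821, 1145 and 661 at 4 h and 458, 504 and 371 at 24 h, a log2FC of -0.95 (SE 0.098). *Loxl1*, a lysyl oxidase that cross-links elastin, had 674, 570.2 and 440.0 at 4 h and 403, 316 and 262 at 24 h, a log2FC of -0.78 (SE 0.09). *Fbln2*, the matrix protein fibulin 2, had 2285, 1617 and 1405 at 4 h and 1145, 1001 and 944 at 24 h, a log2FC of -0.75 (SE 0.092). None of the 3 overlapped between times, and each was called with the spread of 12 libraries but not with that of 6 (adjusted p = 0.063, 0.0633 and 0.0633 in limma). With EtOH the estimates were smaller, -0.35, -0.21 and -0.38, and the differences from EtOH did not pass the threshold. *Fbln2* was itself called lower with EtOH (adjusted p = 0.0224 in limma), whereas the EtOH pairs of *Tagln* had both signs, at -0.75, -0.68 and 0.37. Of the 9 markers of endothelial, mural and fibroblast cells tested, 3 were higher and 6 lower, with a median of -0.091 and no call, and their part in these results was not tested.

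Whether a change over time with CBD differed from the change with EtOH was tested in the 12 libraries for 14503 genes. The difference passed the threshold for 8 genes (0.0552%), of which 1 (0.0069%) moved upward relative to EtOH and 7 (0.0483%) downward. All 8 were also called with CBD over time with the spread of 12 libraries. The 7 reported here are *Scd*, *Slc44a5*, *Fam131a*, *Hivep2*, *Kcnq3*, *Kcnn1* and *Rasd2*. The 8 calls rest on all 3 experiments. Without the pairs of replicate 1, replicate 2 or replicate 3, there were 2, 0 and 6 calls, of which 0, 0 and 3 were among the 8.

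*Slc44a5* (ENSRNOG00000042332, chromosome 2 from 242911325 to 243206404), a choline transporter-like protein, was the single gene called upward. It had 586, 570.2 and 677 at 4 h and 1014, 1018 and 1031 at 24 h with CBD and 552, 538 and 547 at 4 h and 543, 453 and 567 at 24 h with EtOH. The 3 CBD libraries at 24 h were nearly equal and lay far above the rest. The log2FC was 0.74 (SE 0.082) with CBD and -0.073 (SE 0.076) with EtOH, a difference of 0.82 (SE 0.11) (adjusted p = 0.0242 in limma).

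A pair of potassium channel genes was among those called downward. *Kcnq3* (ENSRNOG00000005206, chromosome 7 from 97730465 to 98025653), a subunit of the M-current channel that damps repetitive firing, had 1000.5, 961 and 939 at 4 h and 569.6, 592 and 668 at 24 h with CBD and 982, 966 and 1003 at 4 h and 953, 999 and 1101 at 24 h with EtOH. *Kcnn1* (ENSRNOG00000029264, chromosome 16 from 18585992 to 18597482), a calcium-activated channel of small conductance, had 394, 330.3 and 371 at 4 h and 195, 220.0 and 206 at 24 h with CBD and 394, 365 and 404 at 4 h and 385, 430.2 and 442 at 24 h with EtOH. In both, the 24 h CBD libraries lay below every other library of the 4 groups. The log2FCs with CBD were -0.67 (SE 0.088) and -0.82 (SE 0.12), and the differences from EtOH -0.71 (SE 0.097) and -0.93 (SE 0.13) (adjusted p = 0.0242 and 0.0305 in limma).

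*Rasd2* (ENSRNOG00000014761, chromosome 19 from 13594291 to 13605016), which encodes the small GTPase Rhes, had 3088, 2106 and 2326 at 4 h and 1921, 1570.4 and 1372 at 24 h with CBD, and its change differed from that with EtOH by -0.73 (SE 0.10) (adjusted p = 0.0281 in limma). *Hivep2* (ENSRNOG00000011015, chromosome 1 from 8359289 to 8555993), a zinc finger transcription factor, had 4421, 4006 and 4586 at 4 h and 2993, 2800.5 and 2735 at 24 h, with a difference of -0.66 (SE 0.091) (adjusted p = 0.0242 in limma). *Fam131a* (ENSRNOG00000063031, chromosome 11 from 80211745 to 80221511) had 2024, 1527 and 1999.5 at 4 h and 1084, 1078 and 1161 at 24 h, with a difference of -0.77 (SE 0.097) (adjusted p = 0.0242 in limma). In these 3 genes the CBD groups did not overlap, and the log2FC with EtOH lay between 0.036 and 0.11.

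**Figure D1:**
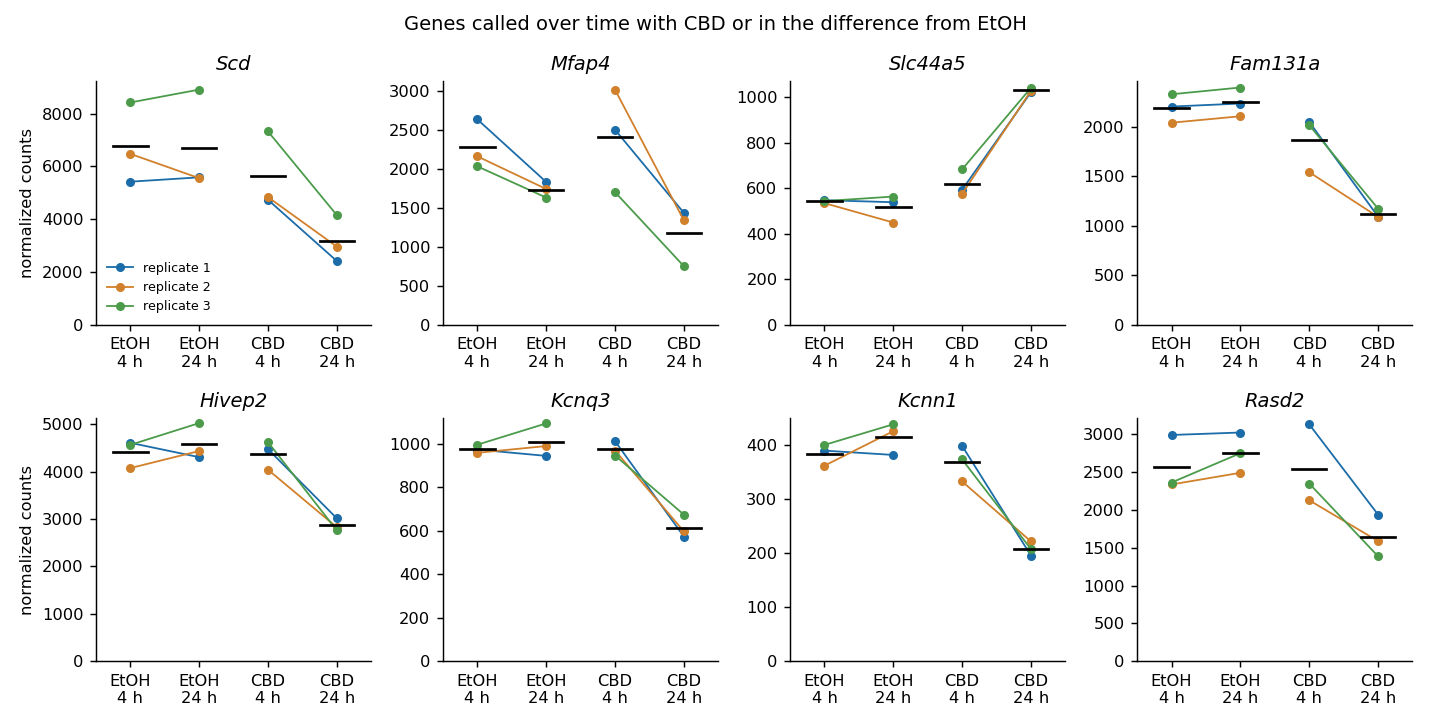
Normalized counts (vertical axes, from 0, on one scale for the 12 libraries) of *Mfap4* and 7 genes called in the difference, in neurons with EtOH or CBD for 4 or 24 h. Coloured points are libraries, lines join the 2 libraries of a replicate number, and black bars are group means of 3. For *Scd*, *Fam131a*, *Hivep2*, *Kcnq3*, *Kcnn1* and *Rasd2* all CBD lines run downward while the EtOH lines are nearly level, *Slc44a5* runs upward with CBD, and *Mfap4* runs downward with both.

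Among genes higher at 24 h, the smallest p belonged to *Slc44a5* and the next to *Gsta1*, a glutathione S-transferase that conjugates electrophiles. *Gsta1* had 274, 156 and 159 at 4 h and 549, 512 and 632 at 24 h, a log2FC of 1.56 (SE 0.18), with an adjusted p of 0.0633 in limma and 0.0366 in edgeR. It also rose with EtOH, by 0.45 (SE 0.10) (adjusted p = 0.0448 in limma). Reads of this gene could be shared with close relatives of its family, so its level is uncertain. *Aox1*, an aldehyde oxidase, had 529, 377 and 295 at 4 h and 827, 1027 and 906 at 24 h and a log2FC of 1.23 (SE 0.17), and it rose with EtOH by 0.45 (SE 0.087) (adjusted p = 0.0139 in limma). For both genes, every library at 24 h was above every one at 4 h, and both were called with the spread of 12 libraries.

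A few low genes had large values that differed widely between experiments. *Ddit4l*, an inhibitor of mTOR signalling, had 52.7, 48 and 71.3 at 4 h and 93.8, 294 and 408 at 24 h. *Galnt3*, which starts O-linked glycosylation, had 51.9, 52.7 and 62.4 at 4 h and 91.5, 181 and 325 at 24 h. In both, the 24 h library of replicate 1 was the nearest to the 4 h libraries, and those of replicates 2 and 3 were well above. Their log2FCs were 1.97 (SE 0.33) and 1.64 (SE 0.27). *Mmp19*, a matrix metallopeptidase, was more even, with 51, 48 and 49 at 4 h and 93.8, 107 and 139.6 at 24 h and a log2FC of 1.17 (SE 0.19). These 3 genes were called with the spread of 12 libraries (adjusted p = 0.0352, 0.0185 and 0.013 in limma) and not with that of 6.

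Among the other genes of the 12 with the smallest p in the upward direction, the 6 described next were called with the spread of 12 libraries and not with that of 6. *Scn1a*, a voltage-gated sodium channel, had 664, 699 and 821 at 4 h and 999, 906 and 1082 at 24 h, a log2FC of 0.45 (SE 0.08). *Hap1*, the huntingtin-associated protein of vesicle transport, had 1373, 1091 and 1271 at 4 h and 1679, 1783 and 2067 at 24 h, a log2FC of 0.57 (SE 0.096). The groups did not overlap for either gene, nor for the 3 genes that follow. *Spon1*, a spondin of axon guidance, had a log2FC of 0.51 (SE 0.065), *Edil3*, an integrin ligand, one of 0.44 (SE 0.073) and *Epb41l3*, a linker of membrane and cytoskeleton, one of 0.40 (SE 0.066). *Spon1* and *Epb41l3* rose with EtOH alone as well, by 0.32 (SE 0.057) and 0.32 (SE 0.054) (adjusted p = 0.00841 and 0.00578 in limma). *Nkx2-2*, a transcription factor of oligodendrocyte progenitors, had 59.7, 77.2 and 31.2 at 4 h and 116, 151 and 61.9 at 24 h, so that it was higher in every pair while the groups overlapped.

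Of the remaining lower genes, *Rem2*, a small GTPase that inhibits voltage-gated calcium channels, had 125, 87.5 and 92.5 at 4 h and 27.8, 22.8 and 37.5 at 24 h and a log2FC of -1.77 (SE 0.23). *Serinc2* had 566, 556 and 714 at 4 h and 344, 364 and 441 at 24 h, a log2FC of -0.67 (SE 0.087), and fell with EtOH by 0.35 on the log2 scale (adjusted p = 0.0388 in limma). *Dusp4*, a phosphatase of MAP kinases, had 3187, 3214 and 4408 at 4 h and 1775, 2169 and 3139.6 at 24 h, a log2FC of -0.63 (SE 0.083), and fell with EtOH by 0.28 on the log2 scale (adjusted p = 0.00587 in limma). None of these 3 overlapped between times with CBD, and each was called with the spread of 12 libraries but not with that of 6 (adjusted p = 0.0672 for each in limma).

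With EtOH alone, 148 of 14155 genes (1.05%) were called between 24 and 4 h, 93 of them (0.657%) higher and 55 (0.389%) lower. With the spread of 12 libraries no EtOH gene was called (0 in limma, with 1017 at an unadjusted p under 0.05), whereas edgeR on the 6 libraries called 146. That spread also took in the CBD pairs, which differed more from each other than the EtOH pairs did. The 148 genes were all tested with CBD too, where 57 of the 93 were also higher and 43 of the 55 also lower. Of the 148, 28 were called with CBD with the spread of 12 libraries. By the sign of the estimate alone, 51.1% of all genes were higher with EtOH and 48.9% lower, and the difference between CBD and EtOH was upward in 49.4% and downward in 50.6%. The median size of the log2FC over all genes was 0.113 with CBD and 0.0744 with EtOH.

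**Figure D2:**
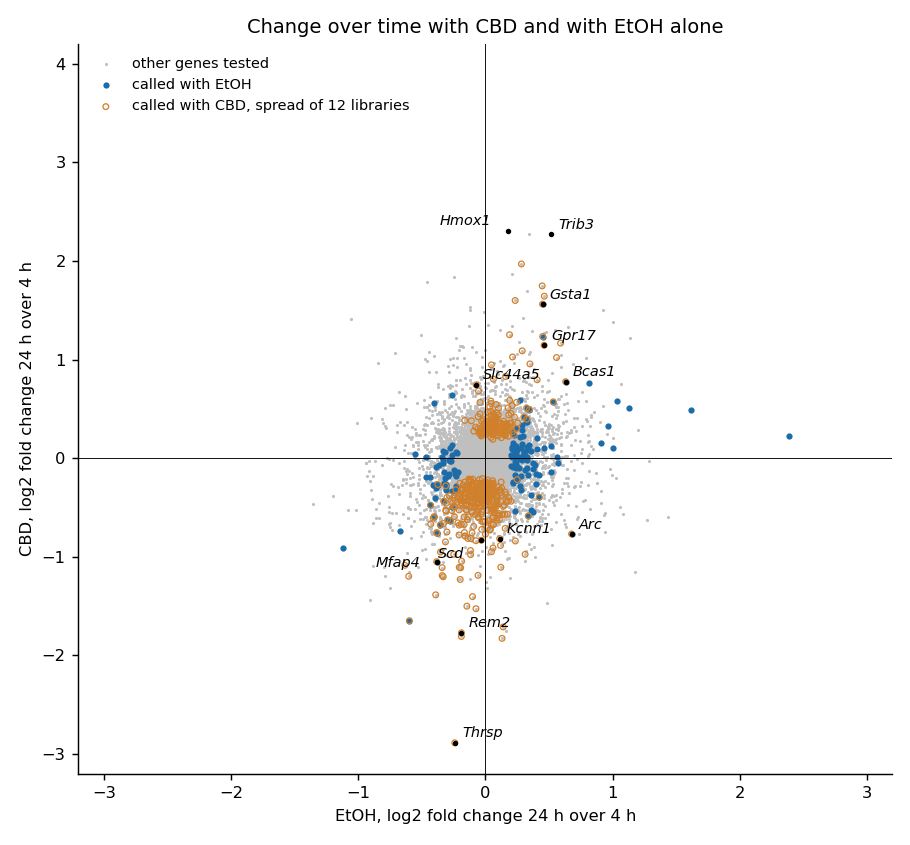
The log2FC of 24 over 4 h with EtOH (horizontal axis) and with CBD (vertical axis) for 13982 genes, of which 1 further gene lies outside the axes. Filled blue points were called with EtOH and open orange circles with CBD with the spread of 12 libraries, and genes with black points are labelled. The orange circles spread mainly up and down, with *Thrsp* and *Rem2* low, while *Mfap4*, lower with both treatments, lies in the lower left and *Gsta1* and *Bcas1*, higher with both, lie in the upper right.

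Genes of the Nrf2 pathway were higher at 24 h as a list, but not evenly across experiments. Of 27 tested members, 22 were higher and 5 lower, with a median log2FC of 0.24 with CBD and 0.031 with EtOH. With CBD none passed the 6-library threshold, and 3 were called higher with the spread of 12 (*Gsta1*, *Gstp1* and *Me1*), against 1.08% of all genes. With EtOH alone 2 of the 27, *Gsta1* among them, were called higher in the 6-library test, against 0.657% of all genes. The median over the list with CBD was -0.022 in the pair of replicate 1, 0.24 in that of replicate 2 and 0.45 in that of replicate 3. In these pairs 12, 22 and 24 members were higher.

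*Hmox1*, the heme oxygenase that is a classical Nrf2 target, had 422, 992 and 854 at 4 h and 450.4, 5396 and 17804 at 24 h. Replicate 1 was near its 4 h value, and replicates 2 and 3 were several times higher at 24 h, up to the highest value of all 6 libraries in replicate 3. The log2FC was 2.31 (SE 0.63) and did not pass the threshold (adjusted p = 0.193 in limma). It was 1.27 without replicate 3 and 3.41 without replicate 1. *Srxn1*, sulfiredoxin, had 30.3, 54.6 and 42.3 at 4 h and 31.3, 170.2 and 556 at 24 h, and *Osgin1*, an oxidative stress response gene, had 20.8, 9.41 and 18.9 at 4 h and 16.2, 59.6 and 195 at 24 h, both with the same split between replicates. *Slc7a11*, the cystine importer of glutathione synthesis, had 275, 502 and 418 at 4 h and 351, 1130.4 and 1328 at 24 h, with a log2FC of 1.06 (SE 0.21). *Gstp1*, a glutathione S-transferase, was higher in all 3 pairs without overlap, with 1365, 1286 and 1400.2 at 4 h and 1693, 2317 and 3326 at 24 h and a log2FC of 0.80 (SE 0.15). *Nfe2l2*, the gene of Nrf2 itself, had 401, 409 and 213 at 4 h and 322, 527 and 810.4 at 24 h, so it was lower at 24 h in replicate 1 and higher in the other pairs.

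The split was wider for ATF4 targets, which serve amino acid synthesis and import and the integrated stress response. Of 24 tested, 21 were higher with a median of 0.31, and none was called with either spread. The median over the list was -0.21, 0.30 and 0.85 in the pairs of replicates 1, 2 and 3, with 2, 18 and 24 of the 24 members higher. The direction was thus opposite in replicate 1 and replicate 3. With EtOH, 17 of the 24 were lower, and the pair of replicate 1 was again the lowest. Its median was -0.11, against 0.022 and 0.0165 in replicates 2 and 3, with 4, 13 and 14 members higher. *Trib3*, a pseudokinase induced by ATF4, had 5.19, 76.2 and 105 at 4 h and 10.4, 388 and 1285 at 24 h, a log2FC of 2.27 (SE 0.43), and it was the one gene of this list that edgeR called (adjusted p = 0.0322; limma, adjusted p = 0.125). *Asns*, asparagine synthetase, had 937, 1141 and 1656 at 4 h and 887, 1862 and 4336 at 24 h, and *Slc3a2*, the heavy chain of amino acid transporters, had 5548, 8003 and 6329 at 4 h and 5509.7, 12765 and 19361 at 24 h. Both sets of groups overlapped through replicate 1. Their log2FCs with EtOH were -0.011 and -0.047.

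Targets of p53 and apoptosis genes were split likewise. Of 20 tested, 15 were higher with a median of 0.16, and the medians by pair were -0.032, 0.15 and 0.45. Only *Eda2r*, a member of the TNF receptor family, was called with the spread of 12 libraries (higher, against 1.08% of all genes). It had 69.2, 51.8 and 45.7 at 4 h and 102, 84.5 and 165 at 24 h. *Cdkn1a*, the cell cycle inhibitor p21, had 485, 274 and 365 at 4 h and 369, 657 and 1411 at 24 h, and *Bbc3*, the proapoptotic protein Puma, had 424, 373 and 617 at 4 h and 411, 747 and 1256 at 24 h. Both were at or below their 4 h value in replicate 1 and above it in the other pairs. Of the 22 lysosome and autophagy genes tested, 15 were higher with a median of 0.082. Only *Lamp2*, a membrane protein of lysosomes, was called with the spread of 12 libraries (higher, against 1.08% of all genes). It had 2339, 2845 and 2005 at 4 h and 2985, 3289 and 3344 at 24 h.

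**Figure D3:**
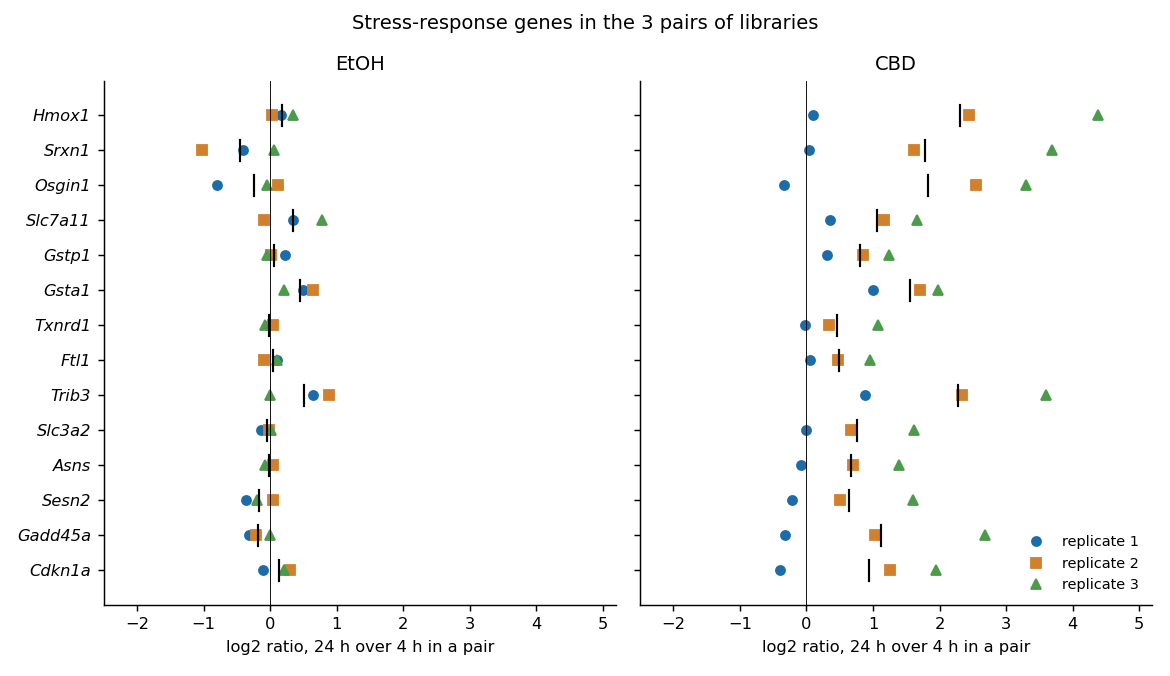
Log2 ratios of 24 over 4 h (horizontal axis) in each of the 3 pairs of libraries for 14 stress-response genes, with EtOH on the left and CBD on the right. Points are pairs, one colour and shape per replicate, and black ticks are the fitted log2FC. With CBD replicate 1 lies near 0 or below for most genes, such as *Hmox1* and *Asns*, and replicate 3 lies farthest to the right, while the EtOH pairs stay close to each other.

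The principal component on which replicate 3 stood apart and these pairwise values come from the same libraries, and their part in each other was not tested. Genes of mitochondrially encoded proteins differed between pairs as well. All 13 were lower, with a median of -0.26, and none was called. The pairs had medians of 0.075, -0.24 and -0.60, and their summed level in replicate 3 was 42736 CPM at 4 h and 29198 CPM at 24 h.

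Of 17 chaperones of the endoplasmic reticulum tested, 6 were higher and 11 lower with a median of -0.11. *Creld2*, a gene of the unfolded protein response, had 611, 1138 and 1174 at 4 h and 464, 548 and 589.7 at 24 h and was called lower with the spread of 12 libraries, at a log2FC of -0.81 (SE 0.13). It was the only call among the 17, against 2.23% of all genes called lower. *Herpud1*, which acts in degradation from the endoplasmic reticulum, had 696, 1685 and 2131 at 4 h and 489, 779 and 1719 at 24 h, lower in each pair with overlapping groups. Heat shock genes were spread around 0, with 9 of 17 higher, a median of 0.0087 and no call.

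Immediate early and activity-regulated genes were mostly lower at 24 h with CBD. Of 29 tested, 25 were lower and 4 higher, with a median of -0.25, against 0.027 over 30 genes with EtOH. With the spread of 12 libraries 7 were called lower, against 2.23% of all genes, and none in the 6 libraries. These were *Dusp4*, *Btg2*, *Rgs2*, *Nr4a3*, *Gadd45b*, *Arc* and *Sik1*. *Btg2*, an antiproliferative gene whose printed promoter holds TGACGTCA, had 943, 1034 and 659 at 4 h and 654, 561 and 432 at 24 h, a log2FC of -0.67 (SE 0.094). *Rgs2*, a regulator of G protein signalling, had 415, 393 and 411 at 4 h and 284, 296 and 265 at 24 h, a log2FC of -0.53 (SE 0.10). *Nr4a3*, a nuclear receptor, had 2952, 2561 and 3489 at 4 h and 2349, 2215 and 2334 at 24 h, a log2FC of -0.37 (SE 0.084). In these 3 the groups did not overlap. *Arc*, a synaptic plasticity gene, had 88.2, 58.3 and 95.8 at 4 h and 60.2, 33.6 and 48 at 24 h with CBD, at a log2FC of -0.77 (SE 0.19), while its log2FC with EtOH was 0.68 and the difference -1.45 (SE 0.25) did not pass the threshold (adjusted p = 0.0696 in limma). In the difference from EtOH, 25 of 30 genes had a negative estimate with a median of -0.35. The medians by pair were -0.48, -0.22 and -0.20 with CBD. *Egr1* and *Fos*, the most used markers of recent activity, were lower in replicates 1 and 2 and higher in replicate 3, with 950.3, 612 and 827 at 4 h and 325, 373 and 1267 at 24 h for *Egr1*.

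**Figure D4:**
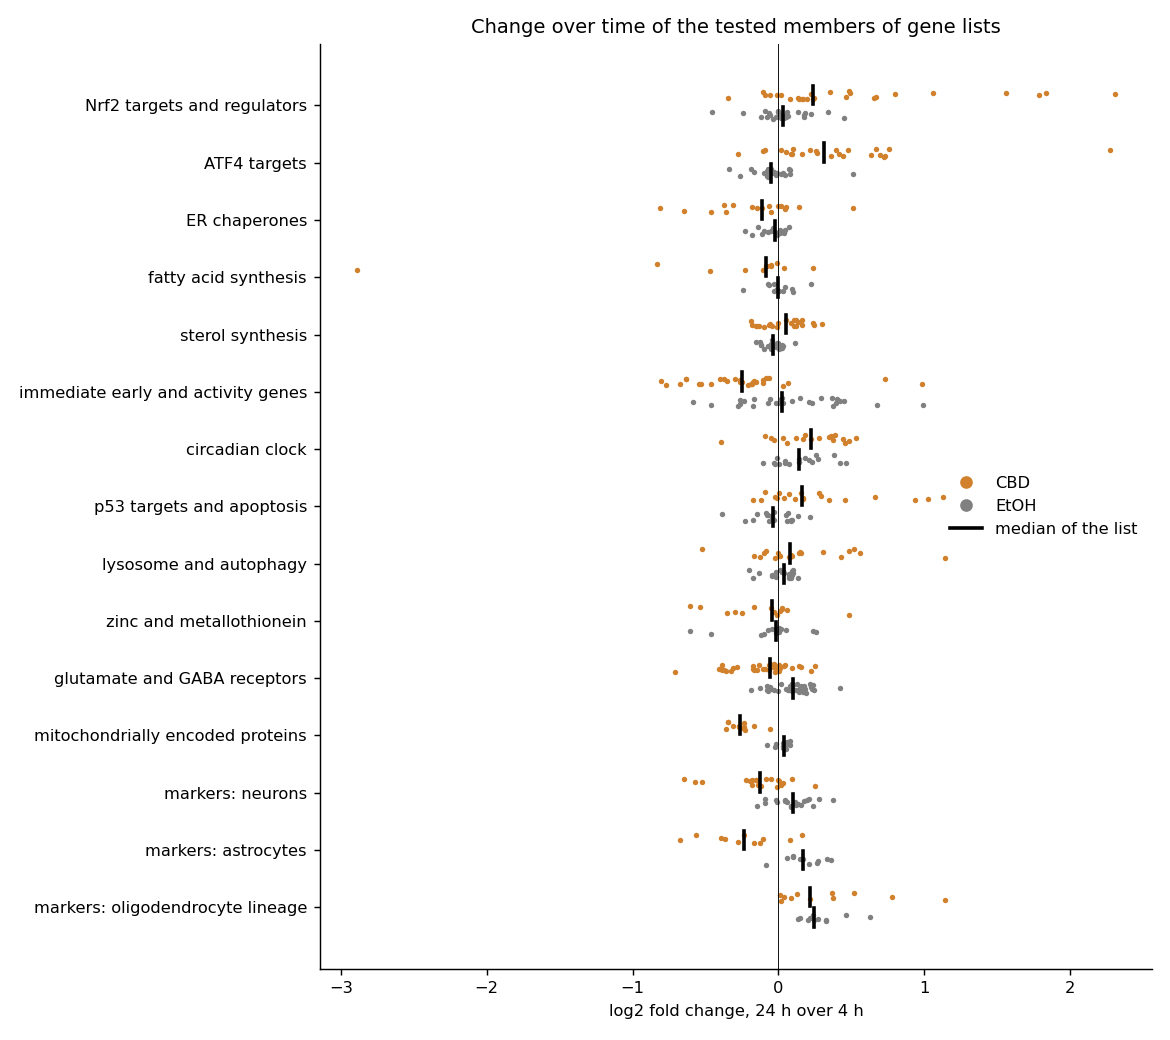
Log2FC of 24 over 4 h (horizontal axis) of each tested member of 15 gene lists, with CBD in orange and EtOH in grey, one point per gene and a black bar at the median of each list. With CBD the medians of the Nrf2 and ATF4 lists lie right of 0 and those of the immediate early genes, mitochondrially encoded genes and astrocyte markers left of 0, while oligodendrocyte lineage markers lie right of 0 with both treatments.

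Among neuronal markers, *Gad1*, *Gad2* and *Prox1* had the lowest log2FCs with CBD. Of the 20, 15 were lower and 5 higher with a median of -0.13 with CBD, and 15 were higher with a median of 0.10 with EtOH. *Gad1* and *Gad2*, which encode the enzymes that make GABA, and *Prox1*, a transcription factor of granule cells and some interneurons, were called lower with the spread of 12 libraries. These were 3 of the 20, against 2.23% of all genes. The medians by pair were -0.037, -0.027 and -0.25, with 9, 9 and 1 of the 20 higher, so the list was lowest in replicate 3, the pair that stood apart on the first principal component. *Gad1* had 2355, 2074 and 2753 at 4 h and 1607, 1526 and 1431 at 24 h, a log2FC of -0.65 (SE 0.10), and *Gad2* had 991, 883 and 1153 at 4 h and 682, 662 and 682 at 24 h, a log2FC of -0.57 (SE 0.089). Neither overlapped between times, and the 24 h values of the 3 replicates were close to each other. The differences from EtOH were -0.63 (SE 0.13) and -0.72 (SE 0.14) and did not pass the threshold (adjusted p = 0.14 and 0.123 in limma). *Slc32a1*, the vesicular GABA transporter, had a log2FC of -0.20 (SE 0.087), and *Slc17a7*, its glutamate counterpart in excitatory neurons, one of 0.091 (SE 0.086). Of the structural markers, *Map2* was at 0.017 and *Tubb3* at -0.14.

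Receptors carry the fast and modulatory signals of glutamate and GABA between neurons. Of 36 tested, 26 were lower with a median of -0.061, while 26 were higher with EtOH with a median of 0.099. *Grin2d*, an NMDA receptor subunit, had 684, 866 and 819 at 4 h and 545, 677 and 586 at 24 h, a log2FC of -0.39 (SE 0.08), and *Grm3*, a metabotropic glutamate receptor also found in astrocytes, had 439, 627 and 387 at 4 h and 377, 368 and 174 at 24 h, a log2FC of -0.71 (SE 0.17). Both were called lower with the spread of 12 libraries, the only 2 of the 36, against 2.23% of all genes. Neither overlapped, and in the list 7 genes were lower without overlap and 0 higher, against 7.14% and 6.15% of all genes. The list's medians by pair were 0.028, -0.095 and -0.19, with 19, 13 and 7 of the 36 higher, so replicate 1 had the opposite sign.

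Astrocyte markers were lower at 24 h in 9 of 11 tested, with a median of -0.24, and were higher in 10 of 11 with EtOH, with a median of 0.17. In the difference from EtOH all 11 estimates were negative, none passed the threshold, and the median was -0.37. *Aldh1l1*, a folate enzyme and general astrocyte marker, had 969, 1226 and 960.2 at 4 h and 742, 872 and 434 at 24 h and was called lower with the spread of 12 libraries. It was the only call among the 11, against 2.23% of all genes called lower. *Gfap*, the intermediate filament of astrocytes, had a log2FC of 0.16 (SE 0.15). The medians by pair were 0.20, -0.31 and -0.65, so the pair of replicate 1 had the opposite sign.

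Markers of the oligodendrocyte lineage had a higher fitted level at 24 h in all 11 tested, with a median log2FC of 0.22, and in all 12 tested with EtOH, with a median of 0.26. With CBD the medians by pair were 0.43, 0.44 and -0.098, and 5 of the 11 were higher in replicate 3, whose pair thus had the opposite sign. The summed level of the list in that pair was 784 CPM at 4 h and 629 CPM at 24 h. *Bcas1* and *Gpr17*, both of early, premyelinating oligodendrocytes, were called higher with CBD with the spread of 12 libraries, 2 of the 11 against 1.08% of all genes. *Bcas1* had 511, 485 and 333 at 4 h and 1119.5, 888 and 418 at 24 h and *Gpr17* had 314, 167 and 124 at 4 h and 711, 664 and 150.0 at 24 h. The pair of replicate 3 showed the smallest ratio for both genes. With EtOH, *Bcas1* rose by 0.63 (SE 0.078) (adjusted p = 0.000704 in limma). Of 7 microglial markers tested, 1 was higher and 6 lower with no call, all from low counts. *Csf1r*, the receptor of the growth factor that maintains microglia, had 49.3, 34.8 and 14.5 at 4 h and 17.4, 7.59 and 10.5 at 24 h. Of 24 proliferation genes, 14 were higher with a median of 0.029 and no call.

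Clock genes were higher in 15 of 19 with both treatments, with a median of 0.22 with CBD and 0.14 with EtOH. With the spread of 12 libraries 1 of the 19 was called higher and 1 lower, against 1.08% and 2.23% of all genes. *Tef*, a clock-controlled transcription factor, had 2636, 2539 and 2493 at 4 h and 3611, 3161 and 3008 at 24 h, a log2FC of 0.35 (SE 0.069), and was called higher with that spread. *Npas2*, a partner of Bmal1, was called lower with that spread, with 221, 217 and 284 at 4 h and 195, 163 and 188 at 24 h and a log2FC of -0.40 (SE 0.13) with CBD, and it rose with EtOH by 0.42 (adjusted p = 0.042 in limma). Its difference of -0.82 (SE 0.14) did not pass the threshold (adjusted p = 0.0696 in limma).

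Zinc and metallothionein genes, which the study had followed after CBD, showed no call over time. Of 14 tested, 5 were higher and 9 lower with a median of -0.041. *Slc30a1*, the zinc exporter of the plasma membrane, had 1335, 1476 and 1394 at 4 h and 1057, 1045 and 1335 at 24 h, a log2FC of -0.30 (SE 0.093) (adjusted p = 0.228 in limma), and its groups did not overlap. *Slc30a2*, a vesicular zinc transporter, had 76.1, 402 and 325 at 4 h and 70.6, 135 and 294 at 24 h. *Mt1*, a metallothionein, had 2239, 5962 and 2504 at 4 h and 2309, 4134 and 3564 at 24 h. In *Slc30a2* and *Mt1*, replicate 2 had the highest 4 h value and the replicates differed more from each other than the times did. The log2FC of *Mt1* was 0.0084 (SE 0.16) with CBD, while it fell with EtOH by 0.46 on the log2 scale (adjusted p = 0.0276 in limma).

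Genes of the cannabinoid system and other proteins that CBD is known to bind were spread around 0, with 6 of 18 higher and a median of -0.06. *Fabp5*, a carrier of fatty acids and endocannabinoids, had 6135, 6169 and 6059 at 4 h and 4759.5, 5163 and 4589 at 24 h and was called lower with the spread of 12 libraries, at -0.34 (SE 0.068). *Abhd12*, a hydrolase of lysophospholipids and 2-arachidonoylglycerol, had 1308, 1249.5 and 1355 at 4 h and 1437, 1627 and 1556 at 24 h and was called higher, at 0.24 (SE 0.076). Of the 18, 1 was thus called higher and 1 lower, against 1.08% and 2.23% of all genes. Of 18 genes of glycolysis and hypoxia, 13 were lower with a median of -0.074. Only *Egln3*, an oxygen-sensing prolyl hydroxylase, was called with the spread of 12 libraries (lower, against 2.23% of all genes). It had 668, 756 and 541 at 4 h and 579, 486 and 400.4 at 24 h. Of 8 targets of the sterol-sensing LXR receptors, 3 were higher, and of 7 genes of the aryl hydrocarbon receptor and drug metabolism, 3 were higher, with medians of -0.072 and -0.037 and no call in either.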

How the data were processed

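RNA libraries of neurons were compared between 24 and 4 h, with CBD (3 against 3) and with EtOH (3 against 3). Per the labels, the authors used Cutadapt 4.4 and Trimmomatic 0.39 for trimming, HISAT2 2.2.1 for alignment against mRatBN7.2, HTSeq 2.0.3 for counting on Ensembl genes and DESeq2 1.40.2 for normalization. The strand setting and the handling of reads shared between genes are not given in the sources used here. As deposited, the signal values are counts that the authors divided by a size factor per library within the 6 libraries. The deposited columns of fold changes, p-values and baseMean hold the authors' own comparison and were not used. Whole reads were recovered for 100% of the values, to within 0.001 reads, and served for the filter and for count tests.

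Log2(normalized count + 1) was fitted with limma 3.58.1 (R 4.3.3) with the replicate number as a block and moderated by eBayes with a trend on the mean, on genes kept by filterByExpr of edgeR 4.0.16, with Benjamini-Hochberg adjustment over all genes tested at a threshold of 0.05. Fold changes are on this scale, which understates those of low genes. The difference between CBD and EtOH was an interaction contrast in 12 libraries, on reads divided by median-ratio size factors. The numbers pair the libraries by independent experiment. Deviations from group means correlated at 0.46, 0.372 and 0.475 for CBD libraries of the same number, and at most at 0.0146 for different numbers. No 2 CBD libraries of the same time agreed within sampling noise, and other pairs of libraries were not checked for this. With EtOH, these correlations were 0.456, 0.411 and 0.607. The 23 gene lists, the members and the tests were chosen with earlier results of these data known.

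Genes named are those called over time with CBD or in the difference, the 12 higher and 12 lower genes with the smallest p among those with a mean of at least 50 normalized counts and 1 sign in all pairs, 5 genes that the study names for CBD (*Hmox1*, *Slc30a1*, *Slc30a2*, *Mt1* and *Nfe2l2*), and members of lists. Of the genes called in the difference, 1 is not reported here. List members named beyond the 4 with the smallest p, and all families of the closing section, were chosen after their values were seen. Alternatives were edgeR's quasi-likelihood test, DESeq2 1.42.0, no block, no filter, TMM scaling, a pseudocount of 0.1, protein_coding genes alone, a log2 fold change of at least 0.5, the spread of 12 or 30 libraries, and leaving out each pair. Tests were tried on simulated data. Plots were drawn with matplotlib 3.10.9 in Python.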

Additional observations from a re-analysis of the deposited data

Results flagged for a closer look

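For the 7 genes reported here, the change from 4 to 24 h with CBD differed from the change with EtOH by a test of the difference itself (limma interaction contrast, 12 libraries, replicate block). The difference in log2FC was -0.80 (SE 0.094) for *Scd*, -0.77 (SE 0.097) for *Fam131a*, 0.82 (SE 0.11) for *Slc44a5*, -0.71 (SE 0.097) for *Kcnq3*, -0.66 (SE 0.091) for *Hivep2*, -0.73 (SE 0.10) for *Rasd2* and -0.93 (SE 0.13) for *Kcnn1*. Adjusted p-values in limma ran from 0.0223 for *Scd* to 0.0305 for *Kcnn1*. In each of the 7, all 3 CBD pairs moved in the direction of the call. With EtOH, all 3 pairs of *Fam131a* and *Rasd2* were higher at 24 h, and the other 5 genes had pairs of both signs. All 7 genes were also called by edgeR and by DESeq2 with the replicate block, and none of them without the block.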

How the results depend on the processing

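With the replicate block left out, which ignores the pairing, there were 0 calls for CBD over time, 0 for EtOH and 0 for the difference (985, 391 and 625 at an unadjusted p under 0.05, in limma). For CBD over time, against 2 calls, there were 169 in DESeq2, 18 in edgeR, 77 with no filter on low counts, 467 with the spread of 12 libraries and 895 with that of 30, and leaving out 1 replicate pair gave 0 to 172. The 2 genes were among the calls in each of these except without replicate 2. For EtOH, against 148, there were 62 in DESeq2, 0 with the spread of 12 libraries, 1 with that of 30, 19 at a log2 fold change of at least 0.5, and 128 to 388 without 1 pair. For the difference, against 8, there were 68 in DESeq2, 47 with the spread of 30 libraries, and 0 to 6 without 1 pair. The other 17 counts stayed within 1.5 times. The spread of 12 libraries took in CBD and EtOH pairs, whose median SDs of pairwise log2 ratios were 0.147 and 0.105. The 467 and 0 calls with that spread therefore do not compare the treatments, which only the test of the difference did. The cause of these moves was not tested further.

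Of the single-gene log2FCs over time with CBD, 4 uncalled genes changed sign without a pair. The lowest and highest values without 1 pair were -0.24 and 0.28 for *Mt1* (-0.0095 without replicate 1), -0.18 and 0.018 for *Tiparp*, -0.91 and 0.061 for *C1qc* and -0.29 and 0.15 for *Col3a1*. No gene called over time or in the difference changed sign under any alternative run. Microglial and endothelial markers, and the 4 h values of *Ifi27l2b*, *Osgin1* and, in replicate 1, *Trib3*, rest on few reads, so depth limits their log2FCs.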

Other observations

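Genes of inhibitory interneurons were mostly lower at 24 h with CBD. In a list of 24 interneuron genes put together after the values had been seen, 22 were tested, 19 were lower and 3 higher, with a median log2FC of -0.36 with CBD, 0.025 with EtOH and -0.36 in the difference. With the spread of 12 libraries 7 were called lower, against 2.23% of all genes, and none passed in the 6 libraries or in the difference. The 7 were *Gad1*, *Gad2*, *Npy*, *Crhbp*, *Lhx6*, *Reln* and *Dlx2*. Because members were chosen with their values known, this share is no test of the list. *Npy*, a neuropeptide, had normalized counts of 363, 326 and 497 at 4 h and 140.1, 202 and 287 at 24 h, a log2FC of -0.95 (SE 0.15). *Lhx6*, a transcription factor of interneurons from the medial ganglionic eminence, had 498, 628 and 679 at 4 h and 377, 465 and 386 at 24 h, a log2FC of -0.55 (SE 0.11). *Crhbp*, the binding protein of corticotropin-releasing hormone, had 58.8, 52.7 and 139 at 4 h and 8.1, 14.1 and 72.4 at 24 h, and was lower in each pair with overlapping groups. *Sst*, somatostatin, was also lower in each pair, with 1887, 1636 and 3139 at 4 h and 1091, 1509.7 and 2288 at 24 h, and was not called. *Calb2*, which encodes calretinin, was higher in each pair, at 0.24 (SE 0.08), and was not called either. Less RNA per interneuron and fewer interneurons cannot be told apart here.

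Ion channel genes were also described by symbol after the values had been seen. Of 73 genes with symbols that begin with Kcn, 47 were lower with a median of -0.09 with CBD and 0.044 with EtOH, and 6 were called lower and 0 higher with the spread of 12 libraries, against 2.23% and 1.08% of all genes. In the difference 2 were called, *Kcnq3* and *Kcnn1*, against 0.0552% of all genes. Both calls were known before the family was chosen, so these shares are no test of potassium channel genes. The other 4 called lower over time were *Kcng1*, *Kcnh3*, *Kcna1* and *Kcnh2*. *Kcng1*, a modifier of delayed rectifier channels, had 1642, 1423 and 1699 at 4 h and 977, 1094 and 916 at 24 h, and *Kcnh3* had 1340.3, 1276 and 1339 at 4 h and 1005, 1066 and 854 at 24 h, both without overlap. Of 22 genes with symbols that begin with Cacn, 15 were lower with a median of -0.066. These are calcium channel genes and the Cacng genes, several of which encode auxiliary subunits of AMPA receptors. With the spread of 12 libraries *Cacna2d2* and *Cacnb1* were called lower, against 2.23% of all genes, and 0 higher. Of 8 sodium channel alpha genes, *Scn1a* was called higher and the median was -0.082.

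A list of 24 genes was built after the values of *Mfap4*, *Tagln*, *Loxl1* and *Fbln2* were known. It held elastic fibre and contractile genes and the hyaluronan synthases *Has2* and *Has3*. Of its 22 tested members 21 were lower, with a median of -0.64 with CBD and -0.23 with EtOH. The smooth muscle genes *Acta2*, from few counts, and *Myh11* were near 0, at -0.13 and -0.02. *Fbln5* was the member with a higher estimate, at 0.61, with pairs of both signs. With the spread of 12 libraries 8 were called lower, against 2.23% of all genes, but members chosen by value cannot test the group. Beside the genes just named, those called were *Myl9*, *Fbn2*, *Has3* and *Mfap2*. With EtOH 2 members, *Mfap4* and *Fbln2*, were called lower. In the difference from EtOH no member was called. *Myl9*, a myosin light chain, had 155, 170.3 and 115 at 4 h and 76.4, 71.5 and 54.1 at 24 h, and *Fbn2*, fibrillin 2, had 564, 483 and 736 at 4 h and 349.6, 335 and 424 at 24 h, both without overlap. *Eln*, elastin, had 2206, 2098 and 1053 at 4 h and 1492, 1251 and 821 at 24 h, lower in each pair and not called. Of 40 fibrillar and other collagen genes, 28 were lower with a median of -0.081 and 0 called with the spread of 12 libraries (7 at an unadjusted p under 0.05 in the 6 libraries).

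Some single genes, chosen after their values were seen, had wide differences with CBD and were called with the spread of 12 libraries but not with that of 6. *Ifi27l2b*, an interferon-inducible gene, had 7.78, 5.65 and 6.68 at 4 h and 13.9, 288 and 788 at 24 h, so nearly all of its rise lay in replicates 2 and 3. Its log2FC was 4.30 (SE 0.94) with CBD and 0.047 with EtOH, with an adjusted p of 0.0257 with the spread of 12 libraries (limma), and it was not called in the difference (limma, adjusted p = 0.305). *Ghitm*, a protein of the inner mitochondrial membrane, had 3532, 3892 and 3769.5 at 4 h and 3935, 5507 and 7411 at 24 h. *Cbs*, the cystathionine synthase of the transsulfuration pathway, had 431, 539 and 398 at 4 h and 307, 220.0 and 136 at 24 h, a log2FC of -1.11 (SE 0.19), without overlap. *Eomes*, a transcription factor of intermediate progenitors and Cajal-Retzius cells, had 140.1, 215 and 70.2 at 4 h and 71.8, 63.9 and 14 at 24 h, and *Agt*, angiotensinogen, which astrocytes make, had 1606, 1931 and 1030.4 at 4 h and 1138, 959 and 439.7 at 24 h. Both were lower in all 3 pairs with overlapping groups. *Eomes* was also called lower with EtOH alone, at a log2FC of -0.60 (limma, adjusted p = 0.0224), and its difference from EtOH did not pass the threshold (limma, adjusted p = 0.419).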
